A study of Danio rerio with 2 samples.

Results

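The right end of zebrafish chromosome 4 carries a dense stretch of genes that still bear provisional names. Rows of the deposited count table were taken as members where they lie on chromosome 4 of the Zv9 assembly, start at or after base 28000000 and have a symbol that starts with LOC, zgc:, si:, wu:, im: or znf. There were 640 such rows among 27423 in the table, with 638 distinct Entrez IDs. RNA of whole brain was sequenced from wild type males and wild type females, as 1 library per sex, each from the pooled brains of 5 fish. The labels used here give neither strain nor age. Of the members, 551 have a LOC symbol, 61 a zgc: symbol, 18 an si: symbol, 7 a wu: symbol, 2 an im: symbol and 1 a znf symbol. Pooling leaves no measure of spread between fish, and 1 library per sex leaves none between libraries, so no test was made. Intervals are given at 95%. They cover counting error alone, and no difference has a replicate check.

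The long arm of zebrafish chromosome 4 is known as a late-replicating, repeat-rich arm with large families of C2H2 zinc finger genes and of NLR genes, which encode innate immune receptors with a NACHT domain. C2H2 zinc finger proteins bind DNA through tandem finger repeats, and their genes often lie in arrays of similar copies. In natural strains of zebrafish the main sex-determining region was mapped to this end of the chromosome, while common laboratory strains have been reported without it. Since the strain of these fish is not given, nothing below shows whether they carried that region.

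The estimated counts, called reads here, summed to 62248792 for males and 64300988 for females. CPM, the usual depth-scaled unit, is here the count divided by the library's size factor and set against the mean library total. All 9 neuronal marker genes looked up were in the table and 8 had reads, while slc17a6b was listed at 0. An entry of 0 in this table is not a safe sign of absent RNA. On chromosome 7, 97.6% of rows with established symbols were listed at 0 in both libraries, on chromosome 23 it was 53.3%, and all 37 mitochondrial rows were at 0. Of 73 rows with a symbol that starts with rpl or rps and a digit, 8 were listed at 0. Of these, 5 lie on chromosome 7, 2 on chromosome 23 and 1 on chromosome 12. This is the naming form of ribosomal protein genes, which every cell uses, but the rows were picked by the start of the symbol alone. On the remaining nuclear chromosomes the share of established rows at 0 ran between 7.32% and 20.9%. Members at 0 are therefore described as listed at 0 and no more.

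Most of the provisional rows at this chromosome end were listed at 0 in both raw count columns, in 522 of 640 rows (81.6%). The other 118 rows had reads, and 81 of them reached a mean of 1 CPM, 12.7% of all members. Rows of the same symbol kinds were at 0 for 43.9% of 269 rows on the rest of chromosome 4, and for 54.4% of 14201 rows on the other chromosomes. Without chromosomes 7, 23 and MT, a comparison added after the data were seen, that last share was 51.0%. By chromosome, leaving out 4, 7, 23 and MT, it ran between 40.6% and 59.4%.

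The higher share at 0 was seen within each of the 4 larger symbol kinds. LOC rows were at 0 for 481 of 551 members (87.3%), against 64.0% on the rest of chromosome 4 and 69.0% on the other chromosomes without 7, 23 and MT. The zgc: symbols come from sequenced full-length cDNA clones, and these rows stood at 0 for 25 of 61 members (41.0%), against 0 of 37 rows on the rest of the chromosome and 6.44% elsewhere. The si: rows, named from clone-based gene models, were at 0 for 11 of 18 members (61.1%), against 31.1% on the rest of the chromosome and 34.6% elsewhere. The wu: rows, named from expressed sequence tags, are few, with 5 of 7 at 0 against 1 of 3 and 42.3%. Neither of the 2 im: members nor the 1 znf member was at 0, against 50.9% of im: and 8.16% of znf rows elsewhere. A low count, with reads in at least 1 library but no more than 10 in either, was seen in 3 of the 118 members with reads. For the same symbol kinds on other chromosomes without 7, 23 and MT it was 114 of 6290. For LOC rows alone it was 2 of 70 against 32 of 2516. Over all rows, those at 0 included, the shares were 0.469% and 0.888%, and for LOC rows 0.363% and 0.395%. The 3 members are si:dkey-13e3.1 (4 reads in males, 5 in females), LOC100006693 (3 and 3) and LOC100008037 (1 and 3).

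**Figure D1:**
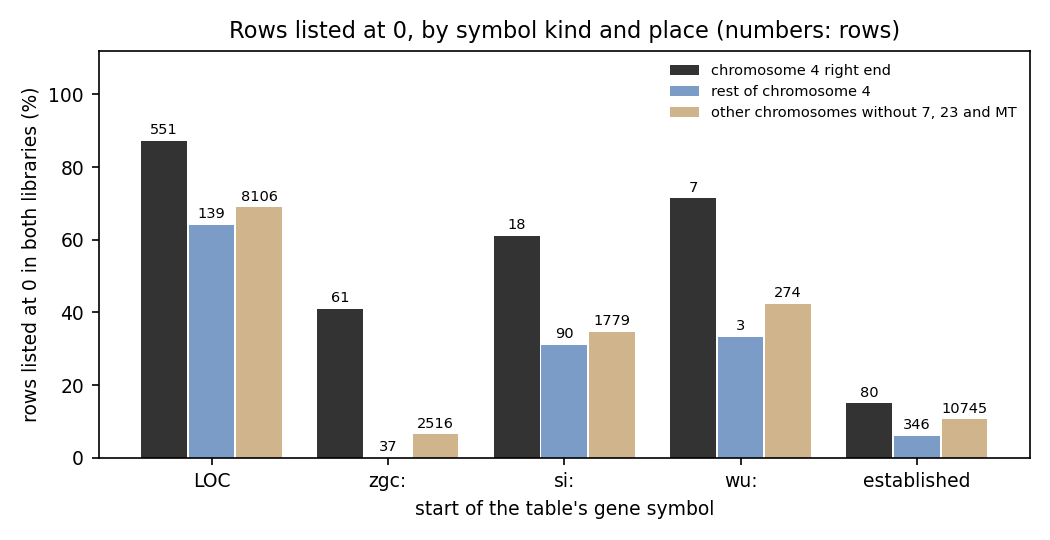
Percent of rows listed at 0 in both libraries, by start of the gene symbol (x axis), for the right end of chromosome 4, the rest of chromosome 4 and other chromosomes without 7, 23 and MT; the number over each bar is the number of rows. The right end has the highest share in LOC, zgc:, si: and wu: rows, with 87.3% of LOC and 41.0% of zgc: rows.

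Over the whole region, a member's ID was also less often still in use where it was listed at 0. Of the 640 members, 170 (26.6%) could be found in RefSeq (gene table of GRCz12tu), 167 through the Entrez ID and 3 through a symbol or synonym. The share was 53.4% for the 118 rows with reads and 20.5% for the 522 rows at 0. It also differed by position. Of members with a mean of 1 CPM or more, 6 of 35 (17.1%) were found before 58 Mb and 35 of 46 (76.1%) beyond it. The 17.1% before 58 Mb covers only members of 1 CPM or more, so rows with reads under that level are left out. The 20.5% for rows at 0 covers the whole region. These shares are matched neither in level nor in position, and they do not show whether the difference holds before 58 Mb. Rows at 0 were not split by position here, so no comparison within a stretch was made. RefSeq records can be withdrawn or merged as an assembly is revised, and the part this played in the zeros was not tested.

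Expression of the members was unevenly placed along the chromosome. In bins of 2 Mb, the 15 bins from 28 to 58 Mb held 502 members, of which 445 (88.6%) were at 0 and 35 reached 1 CPM. The last 3 bins, from 58 Mb to the last row ending at 62089783, held 138 members, of which 77 (55.8%) were at 0 and 46 reached 1 CPM. The boundary at 58 Mb is a bin edge picked after the counts were seen. No member reached 1 CPM in the bins from 52 to 54 Mb and from 54 to 56 Mb, which hold 35 and 26 members. The split also held within a symbol kind, since zgc: rows were at 0 for 23 of 35 before 58 Mb and for 2 of 26 beyond it, and LOC rows for 409 of 450 and 72 of 101. The longest unbroken run of members at 0 held 31 rows, from LOC100148096 to LOC100331290 (chromosome 4, 51696498 to 53224671), followed by runs of 30 rows from 36454002 to 38155705 and 28 rows from 49870752 to 51138263. Rows with reads lay between these runs.

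**Figure D2:**
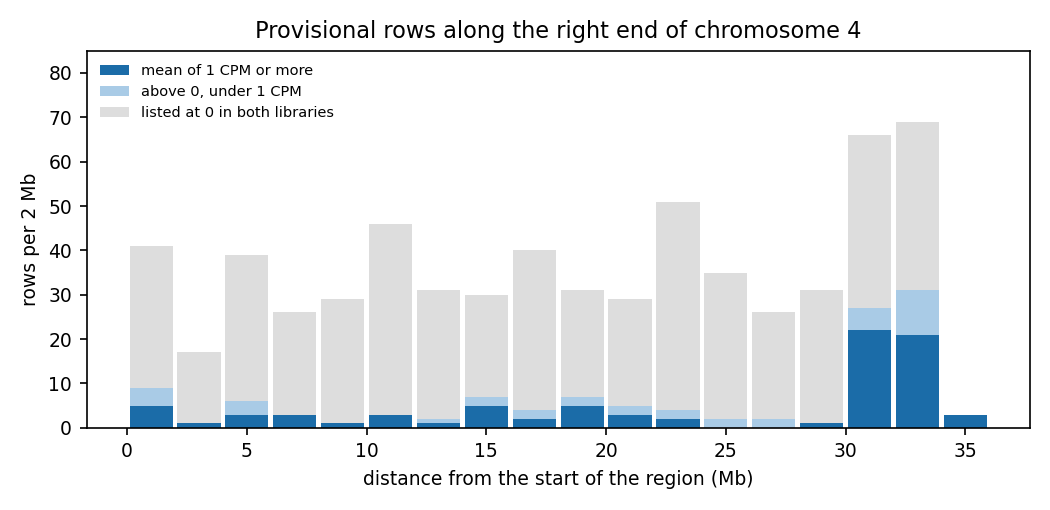
Number of provisional rows per 2 Mb (y axis) by distance from the start of the region (x axis), split into rows with a mean of 1 CPM or more, rows above 0 but under 1 CPM, and rows listed at 0 in both libraries. The last bin is partly filled, with 3 rows; the bins at 30 and 32 Mb of distance hold 22 and 21 rows of 1 CPM or more.

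The 118 rows with reads took 0.105% of the male library's reads (exact Clopper-Pearson interval 0.104% to 0.106%) and 0.108% of the female library's (0.107% to 0.109%). Summed over all members the counts were 65521 reads in males and 69370 in females, a log2 ratio of male over female of 0.01 (interval -0.01 to 0.02) after scaling. The 10 rows with most reads took 52.1% of the members' reads in males and 52.5% in females. Counts grow with transcript length, which the table does not give, so their order is an order of reads and not of expression level per gene.

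The row with most reads was LOC100537481 (plus strand, 35796196 to 35974873), far from the dense distal stretch, with 6833 reads in males and 8890 in females (log2 ratio -0.29, interval -0.34 to -0.24). It has no current RefSeq record, its span overlaps 3 other rows, and it alone took 10.4% of the members' reads in males and 12.8% in females. Next came LOC571208, now kcna1b, a gene of the Kv1 family of voltage-gated potassium channels that set the excitability of axons, with 6662 reads in males and 6175 in females (0.20, interval 0.15 to 0.25). LOC100535898 had 5017 and 5000 reads (0.09, interval 0.04 to 0.15). All 3 rows lie within 0.5 of 0 in log2 ratio.

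Among the other rows with most reads, zgc:172139, now kiaa0930, had 3834 reads in males and 3442 in females (0.24, interval 0.18 to 0.31). LOC100331933 (plus strand, 49696978 to 49722404) had 2432 and 3002 reads (-0.21, interval -0.29 to -0.14). The symbol zgc:154045, now rab21, a small GTPase of early endosomes, stands on 3 rows with the same Entrez ID between 59352600 and 59483004. They had 679, 2736 and 1654 reads in males and 742, 2926 and 1560 in females, and their sum of 5069 against 5229 gave a log2 ratio of 0.04 (interval -0.01 to 0.10). The row zgc:92791, now psmb10, encodes a catalytic subunit of the proteasome that is best known from the immune form, and had 1798 reads in males and 1998 in females (-0.06, interval -0.16 to 0.03). LOC100149074 had 1646 and 1668 reads (0.07), and LOC797633, now si:dkey-172k15.5, had 1507 and 1758 (-0.13). Of the 10 rows, 9 lie beyond 49 Mb and 8 beyond 59 Mb.

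**Figure D3:**
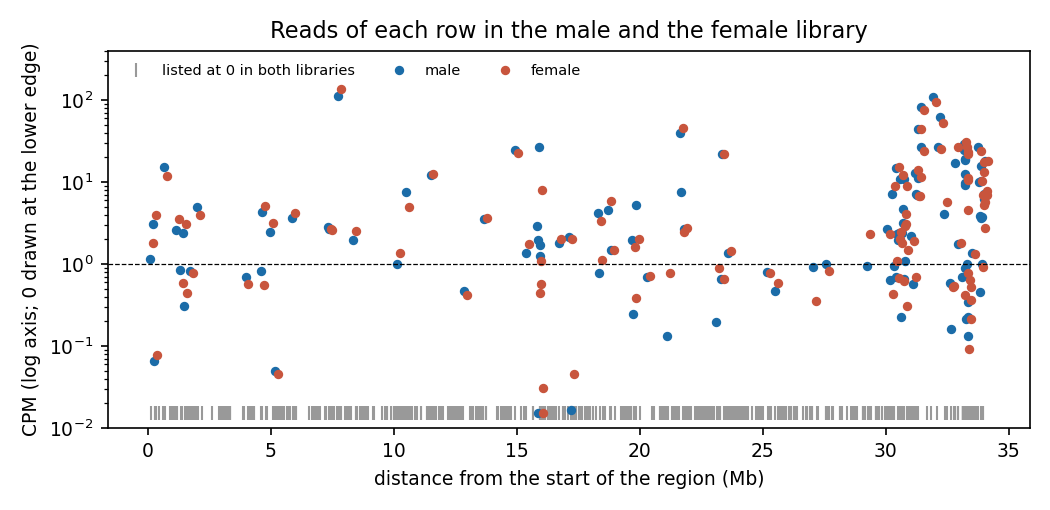
CPM of every member per library, male and female (y axis, log scale) by distance from the start of the region (x axis, male points drawn slightly to the left and female points to the right); grey ticks mark rows listed at 0 in both, values under 0.015 are drawn at the height of the ticks, and the dashed line is 1 CPM. Rows with reads are scattered over the first 30 Mb and crowded in the last 4 Mb.

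Few rows are zinc finger genes by name. Only znf91 carries a znf symbol in the table, and 16 other members have one now. Most members have no current record, so how many more encode zinc fingers was not analysed here. The name znf91 is that of a large human KRAB zinc finger gene, and the row had 56 reads in males and 23 in females (log2 ratio 1.35, interval 0.65 to 2.14), under the minimum of 1 CPM, over a span of 371639 bases that overlaps 2 other rows. Of the 16 members now named znf, 12 were listed at 0 (75.0%, against 81.6% of all members) and 2 reached 1 CPM (12.5%, against 12.7%). These were zgc:113381, now znf1015, with 677 reads in males and 800 in females (-0.15, interval -0.30 to -0.00), and zgc:110238, now znf989, with 145 and 189 (-0.29, interval -0.62 to 0.03). Below the minimum, zgc:173710, now znf1068, had 61 and 54 reads, and zgc:175008, now znf1147, had 15 and 25. The 12 at 0 lie between 28122401 and 56718831, and the 2 with most reads beyond 58 Mb. Outside the region, 52 rows have a znf symbol in the table, of which 7 were at 0 and 43 reached 1 CPM. Without chromosomes 7, 23 and MT, 4 of 49 were at 0. These rows were picked by table symbol and the 16 members by current symbol, so the sets are not alike.

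Rows whose current symbol is still provisional number 137, and 470 rows have no current record. Among those with most reads in the provisional group, wu:fi04h01, now si:ch73-389k6.1, had 1638 reads in males and 1562 in females (0.16), zgc:174310 had 1171 and 1442 (-0.21), and zgc:113209 had 961 and 1148 (-0.17). Rows whose current symbol is an established name other than znf form a small group, 17 of the 640, of which 13 had reads. Beside the 3 rab21 rows, kcna1b, kiaa0930 and psmb10, they include zgc:85975, now ckap4, an endoplasmic reticulum membrane protein that ties to microtubules (434 reads in males, 504 in females), and zgc:85944, now ikbip (379 and 456). The interferon-linked GTPase gene gbp4, on the row si:dkey-61p9.3, had 14 reads in each library, and wu:fd58b11, now the MHC class II gene mhc2d4b, had 28 and 60. None of this group was past 2-fold at 1 CPM or more, against 1.06% of all rows at that level on the male and 2.69% on the female side. The 8 rows of the group at that level, 3 of them rab21 rows, are too few to set against those shares. They ran between -0.18 and 0.24 in log2 ratio.

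Sex differences of 2-fold were few. For want of replicates, calls went by size: a mean of at least 1 CPM, a fold of at least 2 and a counting interval without 1. Of the 81 members at 1 CPM or more, 5 were higher in the male library (6.17%), against 1.06% of the 14885 rows tested in the whole table, and 2 in the female library (2.47%), against 2.69%. These shares are not matched for level. The median was 4.89 CPM for the 81 members and 30.3 CPM over all rows tested. At a minimum of 5 CPM 1 of 39 members was on the male side, and the share over all rows at that minimum is not given here. Of the 5 male-side rows, 3 belong to a single array of short rows, and without that array, left out after the data were seen, 2 male-side rows remain. The other 74 members met neither side, and 67 of the 81 lay within 0.5 of 0 in log2 ratio (82.7%, against 89.0% of all rows tested). The median log2 ratio was -0.04, or 0.04 with the trend of the ratio on expression level removed, against -0.00 over all rows tested.

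**Figure D4:**
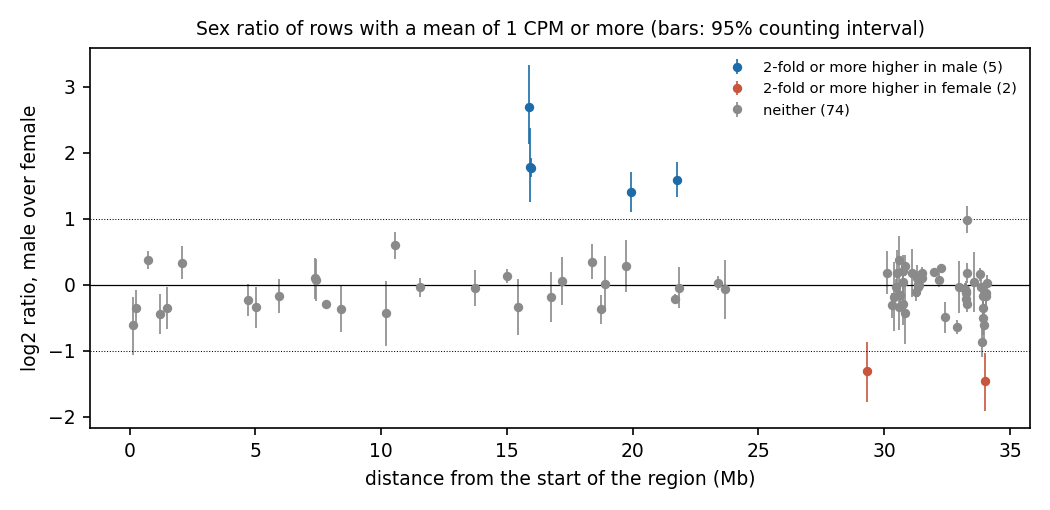
Log2 ratio of male over female (y axis, bars are 95% counting intervals) by distance from the start of the region (x axis) for the 81 members with a mean of 1 CPM or more; dotted lines mark 2-fold. The 5 male-side rows lie between 15 and 22 Mb of distance and the 2 female-side rows beyond 29 Mb, while the remaining 74 scatter about 0.

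The array lies within 125055 bases (43891818 to 44016872) and holds 9 neighbouring LOC rows with no current RefSeq record. Each spans either 168 or 419 bases. The 2 lengths alternate over the first 8 rows, 6 on the minus strand and then the rest on the plus strand. Only 4 other rows of the table have either span, and 1 of those, zgc:163047 on chromosome 19, had reads. The row with most reads was LOC100329601 (168 bases, plus strand, 43973862 to 43974029), with 1663 reads in males and 518 in females (log2 ratio 1.77, interval 1.63 to 1.92). LOC100329746 (168 bases, minus strand, 43891818 to 43891985) had 178 and 29 reads (2.69, interval 2.13 to 3.33), and LOC100537543 (419 bases, minus strand, 43908513 to 43908931) had 121 and 37 (1.79, interval 1.26 to 2.37). All 3 were higher in males.

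The other rows of the array stood under 1 CPM or at 0, and they did not all point to the same side. LOC100332072 had 105 reads in males and 2 in females (log2 ratio 5.49, interval 3.91 to 8.87). LOC100329399 had 77 reads in males and was listed at 0 in females, as the only member with reads in 1 library alone. LOC100537829, a row of 168 bases, went the other way, with an estimate of 0.487 of a read in males and 71.2 in females. LOC100537914, LOC100329469 and LOC100536126 were listed at 0 in both libraries. Summed over the 9 rows, which takes no account of how reads were divided between them, the counts were 2145 reads in males and 658 in females, a 3.47-fold difference (log2 ratio 1.79, interval 1.67 to 1.92). The 4 rows of 168 bases summed to 1842 against 619 reads (1.66, interval 1.53 to 1.80) and the 5 rows of 419 bases to 303 against 39 (3.03, interval 2.56 to 3.57). By strand the sums were 299 against 137 reads on the minus and 1845 against 520 on the plus strand. LOC100329601 alone gave 1663 reads in males and 518 in females to both the 168-base and the plus-strand sum. The splits by length and by strand are therefore not separate observations. The sources used here do not say how reads that match several places were treated, so the split between rows of equal span is uncertain.

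**Figure D5:**
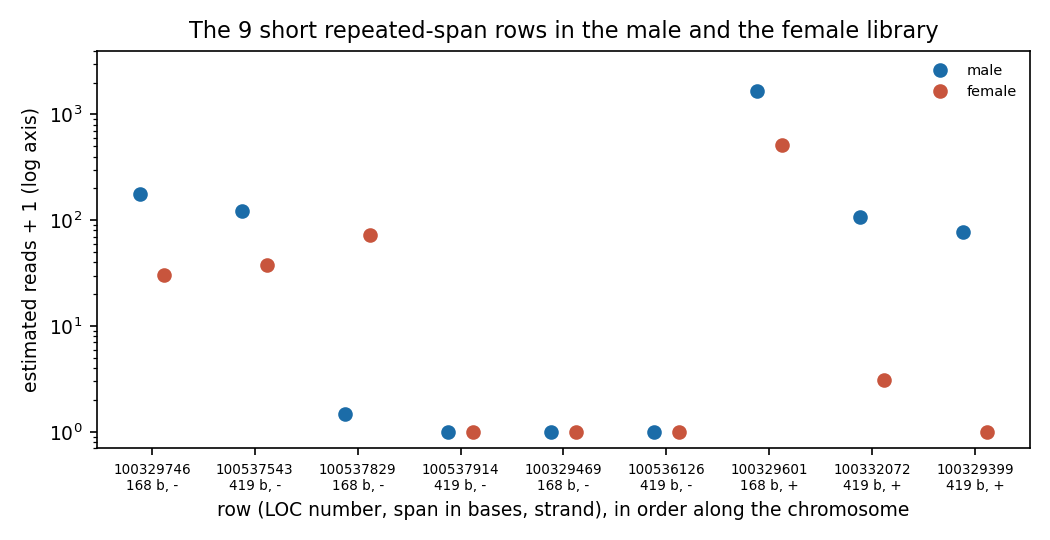
Estimated reads plus 1 per library, male and female (y axis, log scale), for the 9 rows of 168 or 419 bases, in order along the chromosome (x axis). Males are higher in 5 rows and females in 1 row, LOC100537829, while 3 rows are at 0 in both.

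The other male-side rows lie 4 to 6 Mb further along the arm and have long spans. LOC100331709 (plus strand, 49753444 to 49826731) had 459 reads in males and 162 in females (log2 ratio 1.59, interval 1.33 to 1.86), and LOC100535897 (minus strand, 47919149 to 48305245) had 326 and 131 (1.40, interval 1.11 to 1.71). Neither has a current RefSeq record. The first overlaps 2 other rows, 1 of them the row LOC100331854 of 419 bases, listed at 0, and the second overlaps 1 other row. The nearest rows with reads on either side were not past 2-fold on the male side. LOC100331933, the nearest row with reads before LOC100331709, stood at -0.21, and zgc:174180, which starts after it, had 163 reads in males and 179 in females (-0.05, interval -0.36 to 0.27). Around LOC100535897, zgc:175008 had 15 and 25 reads (-0.63, interval -1.68 to 0.33) and LOC100535990 had 42 and 47 (-0.07, interval -0.71 to 0.56), both under 1 CPM.

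The female-side rows were LOC100333748 and zgc:174275, both with few reads, at means of 1.87 and 1.64 CPM. The male-side rows LOC100329746 and LOC100537543 also had few, at 1.67 and 1.27 CPM. LOC100333748, now si:zfos-2131b9.2, which RefSeq holds as a long non-coding RNA (plus strand, 61989798 to 61994788), had 61 reads in males and 179 in females (log2 ratio -1.46, interval -1.91 to -1.04). The row zgc:174275 (plus strand, 57308896 to 57321801) had 58 and 153 (-1.30, interval -1.77 to -0.87) and is the only member of 1 CPM or more between 52 and 58 Mb. Several marker lists had more reads in the female library. Of 22 oocyte and germ cell markers found, 16 were higher in females and 4 in males, while bmp15 and buc were listed at 0. Their summed counts were 8545 in males and 15164 in females, and without nobox, which had most reads and was level (7027 and 7147), 1519 in males and 8017 in females. All 13 liver and yolk markers found were higher in females, with 2817 and 152946 reads summed. Of 8 proliferation markers, 7 had reads, and all 7 were higher in females, while mki67 was listed at 0. All 5 erythrocyte markers were higher in females, with 14861 reads in males and 22068 in females (median log2 ratio -0.57), and so were all 7 glia markers (median -0.21). The neuronal markers were higher in males for 4 genes and in females for 4. The part of these cells in the rows lower in males was not tested.

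Just inside and outside the 2-fold line, zgc:174275 stood at -1.30 and LOC100333249 (minus strand, 61295213 to 61295648) at 0.98 (interval 0.78 to 1.19), with 557 reads in males and 300 in females. The next were zgc:123107, with 234 and 454 reads (-0.87, interval -1.10 to -0.64), and LOC100537697, with 1053 and 1745 (-0.64, interval -0.75 to -0.53). All 3 lie beyond 60 Mb and have intervals that exclude 0, while the ratios themselves fall short of 2-fold.

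Another 37 members had reads but stayed under 1 CPM. Of these, 4 were at least 2-fold higher in males and 6 in females with an interval that excludes 1. Over all 2098 rows of the table at that level the shares were 7.86% on the male and 12.3% on the female side. With no minimum level, 9 of the 118 members with reads (7.63%) were past 2-fold on the male side, against 1.9% of all such rows, and 8 (6.78%) on the female side, against 3.88%. These shares are not matched for level either. The male-side rows under 1 CPM were LOC100332072, LOC100329399, znf91 and LOC100333583 (40 reads in males, 20 in females). On the female side were LOC100537829, LOC565296 (8 and 51), LOC100534842 (12 and 58), LOC100149646 (14 and 40), si:dkey-61p9.8 (8 and 24) and LOC798290, now ms4a17a.2, of a family of membrane proteins (10 and 35). With such counts the intervals are wide, and for LOC100149646 it ran from -2.42 to -0.52.

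With rows of established symbols and members under 1 CPM skipped, neighbouring members shared the side of their ratio in several runs. Between 61846340 and 62063603, from zgc:171673 to zgc:85975, 9 members of 1 CPM or more in a row were lower in males, LOC100333748 among them, with log2 ratios between -1.46 and -0.04, a median of -0.35 and 3766 reads in males against 4977 in females. An earlier run of 7 members, from zgc:153116 to zgc:162948 (60415456 to 61271185), was lower in males as well (median -0.13). Before both stretches, 5 members from zgc:154045 to zgc:172139 (59482168 to 60301556) were higher in males (median 0.17). The runs were picked out after the values were seen, and established rows between these members broke them. Within the run of 9, ttll1 (0.02), arfgap3 (0.10) and terfa (0.08) were higher in males and pacsin2 (-0.14) lower. Within the run of 7, slco1f4 stood at 0.86 (interval 0.38 to 1.35), while ms4a17a.11 (-0.43), ms4a17a.9 (-0.90) and ms4a17a.6 (-0.51) were lower. Within the run of 5, ptprb (-0.53) and ptprr (-0.02) were lower in males and nup50 (0.10) higher. Of the zgc: members at 1 CPM or more, 24 of 30 (80.0%) were lower in males, against 58.6% of 2113 such rows on other chromosomes, and 60.0% of 35 on the rest of chromosome 4. Of LOC members it was 22 of 48 (45.8%), against 31.7% of 2300 on other chromosomes and 42.9% of 49 on the rest of chromosome 4. The sign of a small ratio thus differed between symbol kinds across the table too.

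At each end of the region, the 2 nearest members of 1 CPM or more were not past 2-fold. Nearest its start among members of 1 CPM or more, LOC100535678 (28137497 to 28156455) had 71 reads in males and 116 in females (-0.62, interval -1.07 to -0.18), and zgc:174315 had 188 and 257 (-0.36, interval -0.64 to -0.08). Nearest the chromosome end, zgc:85975 stood at -0.13 (interval -0.32 to 0.06). The last row of the chromosome, LOC100536528 (minus strand, 62087129 to 62089783), had 1122 and 1176 reads (0.02, interval -0.10 to 0.14).

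The region also holds 80 rows with established symbols, of which 12 were at 0 and 19 reached 1 CPM. None of the 19 was past 2-fold, against 1.06% on the male and 2.69% on the female side of all rows tested. They are too few to set against those shares. At the very start of the region lie 50 rows of mir430, a microRNA family known for clearing maternal transcripts in the early embryo. They carried fractions of reads, at most 5.10 in males and 0.679 in females in a row, and summed to 67 reads in males and 7 in females, with 43 of 50 rows higher in males and 7 at 0. Such short, repeated rows can share the same few reads, and an RNA library of this kind does not measure mature microRNAs. Further along, none of the 10 ms4a17a rows with established symbols was higher in males, and 1 was at 0. Their sum was 880 reads in males and 1261 in females (log2 ratio -0.43, interval -0.56 to -0.30). Among members now named ms4a17a, LOC100002785 had 36 reads in males and 34 in females (0.17, interval -0.55 to 0.89). LOC798290 was lower in males, and LOC798358 and LOC798679 were at 0.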

How the data were processed

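Per the labels' protocols, TRIzol-extracted RNA (integrity number 8 to 9, 3 µg) was sequenced as single reads of 51 bp. The submitters' processing notes list TopHat 1.4.1, DESeq and Zv9 without saying what each was for. How reads were counted, by which annotation, and whether by strand or with multiply matching reads shared out, is not given in the sources used here, so overlapping and antisense rows cannot be told apart. Per the file headers the deposited columns are raw counts and normalized counts. The deposited raw counts behave as estimated counts made by the authors, with whole numbers (within 0.001) in 1.56% of the nonzero male and 1.92% of the nonzero female values. The deposited normalized values are on a log2 scale and equal the log2 of the raw count divided by 0.971 (male) or 1.03 (female), with results under 0 set to 0.

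Estimated counts were rounded and each row was kept on its own. Median-of-ratios size factors over the whole table came to 0.970 (male) and 1.03 (female). Ratios were taken on the log2 scale with 0.5 added to each count. Intervals were converted from the Clopper-Pearson 95% interval (exact) for the share of a row's reads in the male library. With 1 rounded count per sex they cover counting error only. The reads carry no molecular identifiers, and neither copied molecules nor the error of the estimated counts is covered. Current symbols came from RefSeq. The files used here hold no sequence or protein description, so members were grouped by current symbol and no sequence is shown. The rows named are the 10 with most reads, the znf row, every row past 2-fold, the 2 rows of at least 1 CPM nearest each end, and up to 4 rows with most reads per name group. Others named are examples chosen after their values were seen. Members, lists and rules were chosen with earlier results of these data known. The calculation was tested on simulated data. Alternatives were TMM factors of edgeR, library totals, the deposited normalized values, rows summed by Entrez ID, other region starts, minimum levels, folds and added counts, and removal of the expression trend by lowess (fraction 0.3). Software was edgeR 4.0.16 in R 4.3.3 and, in Python 3.11.15, scipy 1.17.1, pandas 2.3.3, numpy 2.4.6 and, for the trend and plots, statsmodels 0.14.6 and matplotlib 3.10.9.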

Additional observations from a re-analysis of the deposited data

How the results depend on the processing

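No paired analysis was possible because each sex has 1 library, and for the same reason no library could be left out. The counts of calls were the same with library totals, TMM factors, rows summed by Entrez ID, the normalized values as deposited, both other region starts and 5 added to each count, with 5 male-side and 2 female-side rows each, and with the expression trend removed they were 6 and 2. Other thresholds moved them. At a minimum of 0.5 CPM there were 8 male-side and 4 female-side rows, at 5 CPM, which left 39 members, 1 and 0, and with no minimum 9 and 8. At a fold of 1.5 there were 7 male-side and 6 female-side rows, and at a fold of 3 there were 4 and 0. Shares over all rows are not given for the minimums of 0.5 and 5 CPM or for these folds. Whether those counts depart from the whole table was therefore not tested. Leaving out the 9 array rows left 2 male-side rows. The median log2 ratio stayed between -0.08 and 0.04. The log2 ratio of the members' summed reads was -0.035 with library totals, 0.047 from 40 Mb on and -0.027 without the array rows, so its sign is not settled. From 40 Mb on, 347 members were listed at 0, since fewer rows were counted. The share of rows at 0 on other chromosomes was 51.0% without chromosomes 7, 23 and MT. Among 174 values of 29 named rows under 6 alternatives, 172 kept their call and stayed within their interval or past the rule. The others were a zgc:154045 row, 0.04 when the 3 rows were summed, and LOC100537481, -0.35 with the trend removed.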
